A study of Mus musculus with 2 samples.

Results

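The mast cell genes described here are Kit, Cpa3, Cma1, Mcpt4, Tpsb2, Fcer1a, Ms4a2, Hdc and Gata2. They were chosen by symbol as genes that mark mast cells, with earlier results of these data known. All 9 were found among the 33640 gene symbols of the table. The study sequenced RNA of mitral valves from 5-month-old mice, and compared wild-type animals with animals heterozygous for the C1039G allele of Fbn1, the fibrillin-1 gene whose human counterpart is mutated in Marfan syndrome. Valves from 8 hearts, male and female, were pooled into 1 RNA sample per genotype, and the sources used here do not name the strain background. With 1 library per genotype there was no replicate, no error on any value and no test, and what follows compares these 2 libraries alone. Values are TPM, a transcript level scaled for transcript length and library total, which does not retain the depth of sequencing, so that depth is unknown.

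Mast cells are tissue-resident immune cells packed with granules of proteases, heparin and histamine. They depend on the receptor tyrosine kinase KIT for survival, carry the high-affinity receptor for IgE, and empty their granules when that receptor is cross-linked. In mice, mast cells of connective tissue hold the chymases encoded by Cma1 and Mcpt4, tryptase and carboxypeptidase A3, whereas mucosal mast cells hold the proteases encoded by Mcpt1 and Mcpt2.

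Transcripts of mast cell genes were present in both valve pools. Those of the connective tissue proteases Cma1, Mcpt4, Tpsb2 and Cpa3 were above mucosal Mcpt2 (2.59 and 2.09 TPM) in each. Mrgprb2, a receptor of connective tissue mast cells, was at 0.0842 and 0.149 TPM. Each of the 9 genes was at a higher TPM in the mutant library, as were 64.9% of all genes averaging 1 TPM or more. Gata2 and Ms4a2 were not higher once the libraries were quantile normalized. The differences were unequal. Kit was at 4.23 TPM in wild-type and 14.3 TPM in mutant valves, the tryptase gene Tpsb2 at 3.86 and 8.65 TPM, and the carboxypeptidase gene Cpa3 at 6.53 and 11.3 TPM. The most abundant member, the chymase gene Mcpt4, was at 32.0 and 37.3 TPM, and the transcription factor gene Gata2 at 19.8 and 21.2 TPM. With 1 bulk pool per genotype, more mast cells and more RNA per mast cell cannot be told apart. Nor can RNA of other cells that express some of these genes, or variation between pools.

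**Figure D1:**
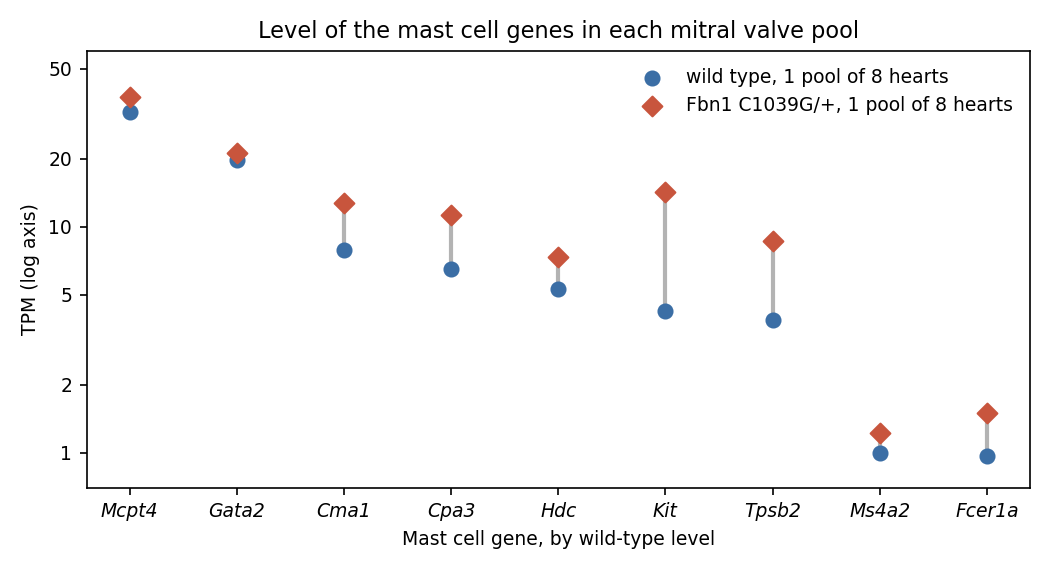
TPM (log axis) of each mast cell gene in the wild-type library (circles) and the Fbn1 C1039G/+ pool (diamonds), ordered by wild-type level, with 1 library per genotype and no error bars. Each diamond lies above its circle at the deposited scale (under quantile normalization Gata2 and Ms4a2 do not), and the gap is widest for Kit (4.23 and 14.3 TPM) and narrowest for Gata2 (19.8 and 21.2 TPM). At the deposited scale 64.9% of all genes averaging 1 TPM or more were higher in the mutant library as well.

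Differences below subtract the wild-type from the mutant value of log2(TPM + 1), a scale that understates differences of low genes, and ratios are of TPM, mutant over wild type. All 9 members averaged 1 TPM or more over both libraries, as did 17004 genes of the table; such genes are called measured below. All 9 were above 0, which 64.9% of those genes were as well. At a difference of at least 1, called at least 2-fold, 1 of the 9 members was higher, against 4.81% of the genes, and 0 of the 9 were lower, against 1.72%. The median difference of the members was 0.41, against 0.14 over all these genes. When differences were centred on the median of genes averaging 10 TPM or more, 8 of 9 members were above 0, and under quantile normalization 7 of 9 were, against 53.5% and 48.4% of all genes. The members below 0 there were Gata2 under both scalings and Ms4a2 under quantile normalization.

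**Figure D2:**
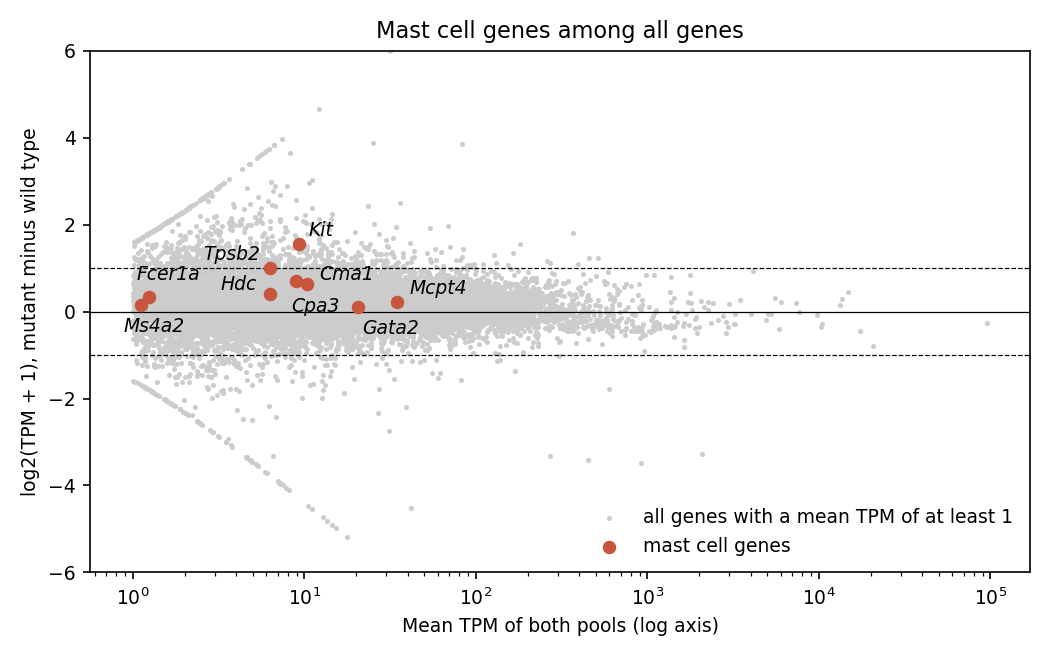
Mutant minus wild-type log2(TPM + 1) against mean TPM (log axis) for all measured genes (grey) and the mast cell genes (red), with dashed lines at the 2-fold limits. Beyond the limits of the vertical axis lies 1 gene, which is not drawn. Kit lies above the upper dashed line and Tpsb2 just below it, while the other members lie within the body of the grey points.

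The receptor gene Kit lies on chromosome 5 at 75574916 to 75656722 (mm10, plus strand, ENSMUSG00000005672.12). Its difference was 1.55 and its ratio 3.37. Among genes averaging 5 to 10 TPM, the range that holds Kit, 6.2% were at least 2-fold higher in the mutant library, and the central 95% of differences ran from −0.87 to 1.46. Kit was thus above that range, and no other member was outside the range of genes of its own abundance. The GENCODE annotation lists 8 Kit transcripts, of which 6 are retained-intron models and the shortest has 354 bases. The deposited value is 1 number per gene, so it does not show which of these transcripts the TPM belonged to. Kitl encodes stem cell factor, the ligand of KIT, and was at 34.1 and 48.1 TPM, a difference of 0.48.

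Fcer1a and Ms4a2 encode the alpha and beta chains of the IgE receptor, of which the alpha chain binds IgE and the beta chain amplifies its signal. Fcer1a (chromosome 1, 173221284 to 173227214, minus strand) was at 0.972 TPM in wild-type and 1.51 TPM in mutant valves, a difference of 0.35. Ms4a2 (chromosome 19, 11615523 to 11623719, minus strand) was at 0.996 and 1.22 TPM, a difference of 0.15. Both were the lowest members in both pools, and both differences lay inside the central 95% of genes averaging 1 to 5 TPM, which ran from −1.44 to 1.93. Few reads may stand behind such levels. TPM times the length of the longest coding transcript in kilobases, which is proportional to reads only if that transcript carried the TPM, was 0.970 and 1.50 for Fcer1a and 2.38 and 2.92 for Ms4a2, against 35.5 and 41.4 for Mcpt4, which has 1 annotated transcript. Fcer1g, the gamma chain that other blood cells use with their own Fc receptors, was at 265 and 354 TPM, a difference of 0.42.

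The 4 granule proteases among the members made up most of the transcript level of the list. Cpa3, which encodes carboxypeptidase A3 (chromosome 3, 20215620 to 20242181, minus strand), had a difference of 0.70 and a ratio of 1.73. Cma1, the chymase known as mMCP-5 (chromosome 14, 55941451 to 55944675, minus strand), was at 7.88 TPM in wild-type and 12.7 TPM in mutant valves, a difference of 0.63. Tpsb2, the tryptase mMCP-6 (chromosome 17, 25366305 to 25369098, plus strand), had a difference of 0.99 and a ratio of 2.24, and so lay just under the 2-fold limit on the log2(TPM + 1) scale. With a pseudocount of 0.1 its difference was 1.15, past the limit. Mcpt4, the chymase mMCP-4 (chromosome 14, 56059629 to 56062313, minus strand), had a difference of 0.22 and a ratio of 1.17. The most abundant protease therefore differed least between the pools and the least abundant of the 4 differed most.

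Summed over these 4 proteases, the level was 50.3 TPM in wild-type and 70.0 TPM in mutant valves, a ratio of 1.39. Mcpt4 made up 63.7% of that sum in wild-type and 53.4% in mutant valves. The sum of the IgE receptor genes Fcer1a and Ms4a2 was at 1.97 and 2.73 TPM, with a ratio of 1.39 as well. Over all 9 members the sums were 81.5 and 115.5 TPM, a ratio of 1.42.

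Hdc encodes histidine decarboxylase, the enzyme that makes histamine (chromosome 2, 126593667 to 126619299, minus strand). It was at 5.29 TPM in wild-type and 7.36 TPM in mutant valves, a difference of 0.41. Gata2 encodes a zinc finger transcription factor of mast cells, blood progenitors and endothelium (chromosome 6, 88193891 to 88207032, plus strand), and its difference was 0.10, below the median of 0.14 over all genes. Gata2 and Mcpt4 were the highest members in both pools.

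The order of the levels was Mcpt4, Gata2, Cma1, Cpa3, Hdc, Kit, Tpsb2, Ms4a2 and Fcer1a in the wild-type library. In the mutant library Kit stood next after Gata2, ahead of Cma1 and Cpa3, and Tpsb2 stood ahead of Hdc. With 1 library per genotype the spread that would separate neighbours in this order is unknown. Ratios between members within a library, at the deposited TPM, do not depend on a single scaling factor per library, although quantile normalization can alter them. Kit was at 0.647 of the level of Cpa3 in wild-type and 1.27 in mutant valves, a ratio between the pools of 1.95. Tpsb2 was at 0.591 and 0.768 of Cpa3, and Cma1 at 1.21 and 1.13. Mcpt4 was at 4.91 and 3.31 times Cpa3, and Gata2 at 3.03 and 1.88 times. Cma1 and Cpa3 thus kept nearly the same proportion to each other, while Kit was higher and Mcpt4 and Gata2 were lower relative to Cpa3 in the mutant library.

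Cma1 and Mcpt4 lie in the chymase locus, a cluster of related serine protease genes. From Cma1 to Gzmb the annotation holds 15 protein-coding genes (chromosome 14, 55941451 to 56262260, mm10). Of these, 3 were measured, namely Cma1, Mcpt4 and Mcpt2. Mcpt2, a protease of mucosal mast cells, was at 2.59 TPM in wild-type and 2.09 TPM in mutant valves, a difference of −0.21. The mucosal gene Mcpt1 and the basophil protease gene Mcpt8 were among 7 genes listed at 0 in both pools, and 12 of the 15, these 7 included, were below 0.3 TPM in both. Gzmb, a granzyme of cytotoxic lymphocytes at the far end, was at 0.268 and 0.236 TPM.

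Tpsb2 lies in the tryptase locus, which from Prss34 to Tpsg1 holds 6 protein-coding genes (chromosome 17, 25298394 to 25374442, mm10). Tpsab1, the second mast cell tryptase gene of the mouse (mMCP-7), was at 0.399 TPM in wild-type and 1.17 TPM in mutant valves, a difference of 0.63. Its mean was below 1 TPM. Tpsg1, a membrane-bound tryptase, was at 1.20 and 0.462 TPM, and 9.05% of its 31-base stretches also occur in another gene, mainly Cacna1h. Prss34, a protease of basophils, was listed at 0 in both pools with Prss28 and Prss29. Of 9 further granule proteases listed by role, Mcpt2 was the 1 measured, Mcpt1, Mcpt8 and Prss34 were at 0 in both pools, and the sums were 4.80 and 4.01 TPM.

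**Figure D3:**
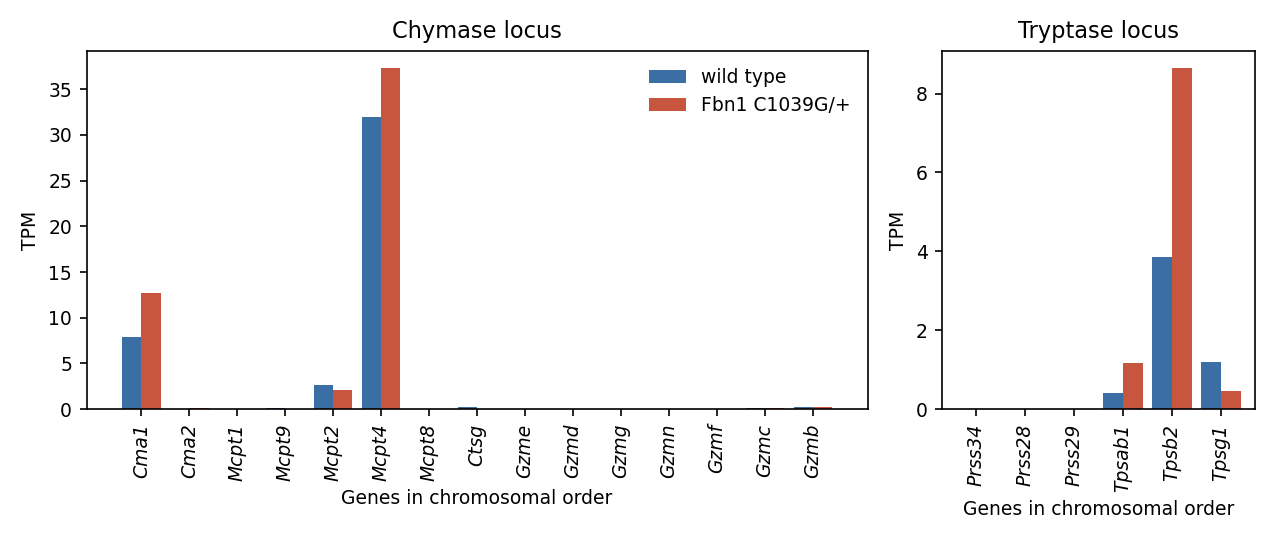
TPM of each protein-coding gene of the chymase locus (left) and the tryptase locus (right) in chromosomal order, with bars for the wild-type pool (blue) and the Fbn1 C1039G/+ pool (red), on separate linear axes from 0 and with 1 library per genotype. Cma1, Mcpt2 and Mcpt4 are the visible genes of the chymase locus and Tpsab1, Tpsb2 and Tpsg1 those of the tryptase locus.

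Because these proteases are close relatives, the share of each member's transcript sequence that also occurs in another annotated gene was counted in stretches of 31 bases. For Kit, Cpa3, Fcer1a and Gata2 it was 0%. For Tpsb2 it was 0.557%, that is 9 stretches, all found in Tpsab1. For Hdc it was 0.487% and for Ms4a2 4.03%. Cma1 shared 10.6% of its stretches, all 112 of them with the predicted gene Gm48934, and Mcpt4 shared 12.2%, mainly with Cma2. Cma2 was listed at 0 for wild-type and at 0.135 TPM for mutant valves. Most sequence of each member was therefore its own, although the sources used here do not say how shared reads were divided.

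The promoters of members are shown because GATA2, a member itself, is known to bind GATA motifs. RefSeq (GRCm38.p6) gave a start site for 8 of the 9 members, Tpsb2 being the exception. The 250 bases before each start were searched on both strands for the motif AGATAA, for TGATAA, for AGATAG and for TGATAG. A match was found for 6 of the 8 members, Cpa3, Cma1, Mcpt4, Fcer1a, Ms4a2 and Hdc, and none in these windows of Kit and Gata2. Of all 27025 genes in the table of promoters, 29.7% had a match in at least 1 window, and of the 15366 genes with less than 55% G and C in every window 40.0% did. The windows of the 6 members had 38.8% to 51.2% G and C, and those of Kit and Gata2 67.2% to 74.0%. The sequences of 5 of the 6 follow, written 5′ to 3′ on the strand of the gene and ending at the base before the start, with each match in capitals.
Cpa3 (chr3:20242182-20242431, minus strand): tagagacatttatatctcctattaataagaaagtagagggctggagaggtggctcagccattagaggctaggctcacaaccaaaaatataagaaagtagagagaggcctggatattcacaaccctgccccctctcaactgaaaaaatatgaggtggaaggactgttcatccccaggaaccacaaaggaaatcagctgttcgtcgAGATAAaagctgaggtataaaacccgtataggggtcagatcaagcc
Cma1 (chr14:55944676-55944925, minus strand): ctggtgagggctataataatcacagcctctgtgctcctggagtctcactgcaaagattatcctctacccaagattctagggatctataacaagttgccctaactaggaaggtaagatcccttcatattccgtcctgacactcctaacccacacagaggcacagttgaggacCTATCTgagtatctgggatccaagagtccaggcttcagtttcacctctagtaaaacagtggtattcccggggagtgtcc
Mcpt4 (chr14:56062311-56062560, minus strand): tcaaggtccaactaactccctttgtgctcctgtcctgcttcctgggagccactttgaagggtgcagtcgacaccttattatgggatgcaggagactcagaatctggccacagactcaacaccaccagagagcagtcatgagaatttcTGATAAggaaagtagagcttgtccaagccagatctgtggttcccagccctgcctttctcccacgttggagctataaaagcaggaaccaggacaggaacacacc
Fcer1a (chr1:173227230-173227479, minus strand): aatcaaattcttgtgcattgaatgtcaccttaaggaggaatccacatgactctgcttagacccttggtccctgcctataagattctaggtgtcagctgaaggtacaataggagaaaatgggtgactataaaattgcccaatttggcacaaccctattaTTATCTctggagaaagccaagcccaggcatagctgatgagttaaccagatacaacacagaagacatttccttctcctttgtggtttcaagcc
Ms4a2 (chr19:11623720-11623969, minus strand): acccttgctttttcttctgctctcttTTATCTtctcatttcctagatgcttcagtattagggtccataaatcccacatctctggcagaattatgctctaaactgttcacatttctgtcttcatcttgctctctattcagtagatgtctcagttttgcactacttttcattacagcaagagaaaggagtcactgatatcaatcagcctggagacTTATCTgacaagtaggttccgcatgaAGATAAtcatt
Ms4a2 had 3 matches, and the other members with a match had 1 each. In Cpa3 the match AGATAA lay 46 to 41 bases before the start. In Mcpt4 the match TGATAA lay 103 to 98 bases before it. In Cma1 and Fcer1a the match is read on the opposite strand, as CTATCT and TTATCT. A match describes the letters of the window and does not show that a factor binds there. Members with a match had differences from 0.15 (Ms4a2) to 0.70 (Cpa3), and those without had the largest and the smallest, Kit (1.55) and Gata2 (0.10).

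Genes around the members were taken as lists by role, and their counts are to be read against the 64.9% of all measured genes above 0 and the 4.81% at least 2-fold higher. Signalling below the IgE receptor had 17 of 18 genes measured, of which 15 were above 0 and 4 were at least 2-fold higher, with a median difference of 0.52. The 4 were the kinase gene Btk (2.78 TPM in wild-type and 8.30 TPM in mutant valves), the phosphatase gene Inpp5d (13.8 and 29.2 TPM), the adaptor gene Lat2 (5.43 and 11.9 TPM) and the calcium channel gene Orai1 (7.39 and 15.9 TPM). Lat, another adaptor gene of this list, went the other way, at 3.63 and 1.60 TPM, a difference of −0.83. The abundant Gab2, an adaptor, was at 132 and 145 TPM. Many of these genes are active in B cells, macrophages and other blood cells too.

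The ligand and signalling list of KIT had all 15 genes measured, with 10 above 0, about the share of all genes, and a median difference of 0.09. Ptpn6, the phosphatase SHP-1 of blood cells, was the 1 gene at least 2-fold higher, at 17.7 TPM in wild-type and 46.9 TPM in mutant valves. Stat5b, a transcription factor downstream of cytokine receptors, was at 12.8 and 7.48 TPM, a difference of −0.70. The abundant Pik3r1, a regulatory subunit of phosphoinositide 3-kinase, was at 82.0 and 77.6 TPM, and the ubiquitin ligase gene Cbl at 48.3 and 64.3 TPM. The receptor Kit had a larger difference than any gene of this list.

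Of histamine, serotonin and lipid mediator genes, 10 of 14 were measured, 8 were above 0, none was 2-fold different and the median difference was 0.31. Hpgds, the prostaglandin D2 synthase of mast cells, was at 19.0 TPM in wild-type and 25.5 TPM in mutant valves, and Alox5, which starts leukotriene synthesis, at 11.0 and 17.2 TPM. The phospholipase gene Pla2g4a was at 118 and 180 TPM and the cyclooxygenase gene Ptgs1 at 118 and 116 TPM. The histamine receptor gene Hrh2 was at 1.27 and 2.61 TPM, a ratio of 2.05 but a difference of 0.67 on the log2(TPM + 1) scale. Tph1, the enzyme of serotonin synthesis that mouse mast cells use, was at 4.61 and 5.01 TPM. The 2 measured genes below 0 were Ptgs1 and Hnmt, the latter an enzyme of histamine breakdown.

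Surface receptors of mast cells and their cytokines had 13 of 17 genes measured, 12 above 0, none 2-fold different, and a median difference of 0.35. Many genes of this list are active in macrophages and other cells too, so its counts do not describe mast cells alone. Il1rl1, the receptor for interleukin-33, was at 3.93 TPM in wild-type and 8.69 TPM in mutant valves. Its ratio was 2.21, but its difference of 0.97 lay under the limit on the log2(TPM + 1) scale. The adenosine receptor gene Adora3 was at 4.97 and 9.34 TPM, and Cd200r3, a receptor of mast cells and basophils, at 3.97 and 7.57 TPM. The differences of these low-level receptor genes lay between those of Cpa3 and Tpsb2. The abundant Csf2rb, the shared beta chain of cytokine receptors, was at 58.9 and 65.0 TPM, and Il33 itself at 65.4 and 78.4 TPM. Mrgprb2, the receptor for basic peptides on connective tissue mast cells, was at 0.0842 and 0.149 TPM.

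Granule content and release genes had all 15 measured, with 10 above 0, again about the share of all genes, none 2-fold different and a median difference of 0.11. Srgn, the core protein that carries heparin chains in the granule, was at 62.8 TPM in wild-type and 78.7 TPM in mutant valves. Other blood cells express Srgn too, so its level is not that of mast cells alone. Slc18a2, the transporter that loads histamine and serotonin, was at 8.18 and 10.2 TPM. The largest difference was that of Unc13d, a vesicle priming factor, at 54.2 and 80.6 TPM, while the tetraspanin gene Cd63 was at 281 and 237 TPM. Lineage transcription factors had 11 of 12 measured, 8 above 0 and a median difference of 0.14, as over all measured genes. Spi1 (PU.1), a factor of myeloid cells, was at 25.1 and 47.3 TPM, Mitf at 14.4 and 18.3 TPM, and Lmo2 at 59.6 and 61.4 TPM. Gata1 was at 0.140 TPM in wild-type valves and listed at 0 in mutant valves.

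**Figure D4:**
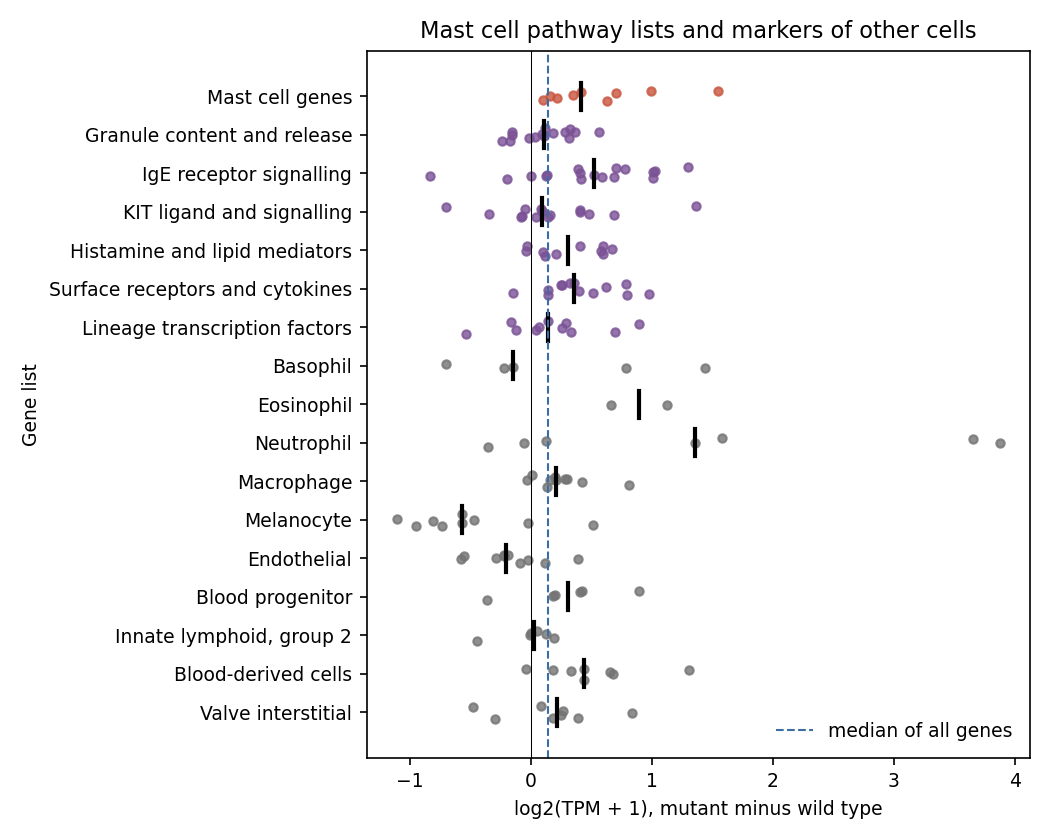
Mutant minus wild-type log2(TPM + 1) of each measured gene in the mast cell genes (red), the lists of their pathways (purple) and the markers of other cells (grey). Black bars are list medians, points are jittered vertically, and the dashed line is the median of all genes (0.14). The list of other granule proteases, with 1 gene measured, is not drawn. The melanocyte, endothelial and basophil medians lie below 0 and the neutrophil median (1.36) furthest above.

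Other cells that share these genes were checked by their own markers. Basophils carry the IgE receptor, Hdc and Gata2 as well, and of 8 basophil markers the defining proteases Mcpt8 and Prss34 were listed at 0 in both pools. The 8 markers summed to 20.7 TPM in wild-type and 33.0 TPM in mutant valves. In that sum Ifitm1, which other cells also express, was at 6.22 and 18.6 TPM, and 2 of 5 measured markers were above 0, with a median difference of −0.15. Of 9 eosinophil markers, Prg3, Ear1 and Ear6 were listed at 0 in both pools, 2 were measured and both were above 0. The sums were 8.52 and 18.2 TPM. Ear2 (5.24 and 12.6 TPM) made up most of both sums, and the other measured gene was Il5ra (2.19 and 4.04 TPM). Among markers with a mean below 1 TPM, Epx was at 0.438 and 0 TPM, Prg2 at 0 and 0.162 TPM and Siglecf at 0.609 and 1.21 TPM.

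Melanocytes depend on KIT too and lay on the other side. Of 10 markers 9 were measured and 8 of them were below 0, with a median difference of −0.57 and sums of 162 TPM in wild-type and 91.1 TPM in mutant valves, and none was listed at 0. Dct, a pigment enzyme, was at 68.2 and 31.1 TPM. Endothelial cells express Gata2, and 8 of their 10 markers were below 0, with sums of 906 and 876 TPM. Blood progenitors express Kit and Gata2, and 5 of 6 measured markers of 7 were above 0, with sums of 416 and 468 TPM, of which Cd34 (224 and 254 TPM) and Mecom (120 and 138 TPM), which endothelium also expresses, made up most. The part of these cells in the values of Kit and Gata2 was not tested.

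Markers of blood-derived cells in general lay on the same side as the members. Of 8 such genes 7 were above 0, with a median difference of 0.44 and sums of 803 TPM in wild-type and 1105 TPM in mutant valves, a ratio of 1.38, against 1.42 for the sum of the 9 members and 1.39 for the 4 proteases. Ptprc, which encodes the pan-leukocyte protein CD45, was at 73.2 and 183 TPM. Ratios of the single genes ran from 0.97 (Rac2) to 2.49 (Ptprc), so the ratio of the sums is not one that each gene shared. Neutrophils can express Hdc, and their 13 markers summed to 19.5 and 107 TPM, with 5 of 7 measured above 0, 4 of them at least 2-fold higher, and Ly6g and Elane listed at 0 in both pools. The alarmin genes S100a8 (0.369 and 16.2 TPM) and S100a9 (2.34 and 48.0 TPM) made up most of the gap between these sums. Of 10 macrophage markers 9 were above 0, with sums of 2071 and 2459 TPM, and of 8 markers of group 2 innate lymphoid cells 6 were measured and 4 were above 0, with sums of 92.5 and 98.4 TPM. The part of these cells in the values of Hdc and of the lists by role above was not tested.

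Of the libraries as a whole, TPM summed to 999964 in wild-type and 999945 in mutant valves, and 12542 and 12222 genes were listed at 0. The 8 markers of valve interstitial cells, the resident fibroblasts of the valve, were at 88.2 to 11409 TPM in the wild-type library. In the mutant library they were at 93.5 to 9304 TPM, and 6 of the 8 differences were above 0. Fibroblasts of other tissues express such genes too, so these levels do not check the tissue label. Fbn1 itself was at 108 and 126 TPM, which does not check the genotype, since a missense allele need not alter the amount of mRNA.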

How the data were processed

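Mitral valve RNA was amplified (NuGEN Ovation v2) before Nextera XT library preparation, per the labels' protocols. Trimmomatic, HISAT2, kallisto and the mm10 build are named in the submitters' processing notes; the sources used here give no versions, roles or annotation. The authors deposited 1 TPM value per gene and library, per the file headers. Amplified reads without molecular identifiers are not independent molecules, TPM keeps no depth, and no interval or floor was computed.

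Columns were matched to libraries by genotype. Differences used a pseudocount of 1, a minimum mean of 1 TPM and a 2-fold limit, with no test. Coordinates and transcripts came from GENCODE M21 (GRCm38, the mm10 sequence). Python 3.11.15, numpy 2.4.6, pandas 2.3.3 and matplotlib 3.10.9 were used.

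The members and the 17 other lists were chosen with earlier results of these data known. Named genes were the members, Fbn1, and from each list the 2 most abundant and the 2 with the largest difference, and genes below 1 TPM in both pools. Chosen after their values were seen were Kitl, Lat, Lat2, Orai1, Alox5, Hpgds, Hnmt, Tph1, Srgn, Slc18a2, Mitf, Cd200r3, Tpsab1, Tpsg1, Siglecf, Rac2, both loci, the 31-base comparison and the GATA motifs. Not every gene that the rule takes is printed.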

Additional observations from a re-analysis of the deposited data

How the results depend on the processing

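With 1 library per genotype no replicate could be left out, and no depth can be given. No paired analysis was possible because each genotype had 1 library. Under pseudocounts of 0.1 and 5, centring, quantile normalization and without predicted, Rik, globin, mitochondrial and ribosomal protein genes, Kit was at least 2-fold higher in 6 of 6 settings, the main one included, with differences from 1.06 to 1.73. The count of members at least 2-fold higher became 2 with a pseudocount of 0.1, when Tpsb2 was added and 7.43% of all genes passed. It was 1 under the other alternatives, where 1.23% to 3.88% of all genes passed. The count of members at least 2-fold lower was 0 under each, where 0.51% to 2.73% of all genes passed. The median difference of the members, 0.41, became 0.58 with a pseudocount of 0.1, 0.26 with a pseudocount of 5, 0.30 when centred and 0.23 under quantile normalization. Over all genes averaging 1 TPM or more the medians were 0.16, 0.10, 0.03 and −0.01 in that order. For the members it was 0.63 over the 7 averaging 5 TPM or more, against 0.12 over all such genes. As a mean it was 0.57, against 0.17. Without Kit, Gata2 and Hdc it was 0.49. Gata2 was at −0.01 when centred and −0.06 under quantile normalization, where Ms4a2 was at −0.04.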
